A study of Homo sapiens with 2 samples.

Results

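The interiors of the very long genes are described here as ATAC-seq read them in CAL27, an established line from a human squamous carcinoma of the tongue. ATAC-seq marks open chromatin by where the transposase Tn5 can cut. The lactate library came from cells given 10 mM lactate for 24 h, and the untreated library from cells of the same line without it, so each group was 1 library and no difference between them has a replicate check. A gene counted as very long when it was protein-coding and spanned 500 kb or more in the RefSeq annotation of hg38, which held for 314 of 19974 genes on chromosomes 1-22 and X. An open region was a member when it lay wholly inside such a gene and 5 kb or more from every protein-coding gene end. Single-summit regions of 218 to 226 bp were left out by the same rule. That gave 5304 of 102720 lactate regions (5.16%) and 4072 of 81142 untreated regions (5.02%). The 314 genes spanned 500.05 to 2474 kb with a median of 723 kb, and their kept interiors covered 256.9 Mb. Interiors of the 16623 genes shorter than 100 kb, covering 277.0 Mb, were set beside them and held 11389 lactate regions and 8720 untreated regions.

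Very long genes owe their length to large introns rather than to long coding sequence. Many encode synaptic adhesion molecules, ion channels and receptors that are used mostly in neurons, and several of the longest, among them FHIT and WWOX, coincide with common fragile sites, where chromosomes break under replication stress. Open regions deep inside such genes are usually candidate enhancers or alternative promoters, which may serve the host gene or a neighbour. All regions here lie between gene ends, so exons and introns were not separated, since the annotation used held gene spans without exons.

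Sequence from hg38 for the open regions themselves was not used here. RefSeq promoters (300 bases, GRCh38.p14, the same build) are printed for the gene with the densest interior, GSE1 (chr16:85613072-85613371), the second densest by merged regions of both lists, SCHIP1 (chr3:159839710-159840009), and a gene with no interior region in either list, GALNT17 (chr7:71131894-71132193), all on the plus strand. They run from 250 bases before to 50 after the listed start site, with CG dinucleotides in capitals.
GSE1: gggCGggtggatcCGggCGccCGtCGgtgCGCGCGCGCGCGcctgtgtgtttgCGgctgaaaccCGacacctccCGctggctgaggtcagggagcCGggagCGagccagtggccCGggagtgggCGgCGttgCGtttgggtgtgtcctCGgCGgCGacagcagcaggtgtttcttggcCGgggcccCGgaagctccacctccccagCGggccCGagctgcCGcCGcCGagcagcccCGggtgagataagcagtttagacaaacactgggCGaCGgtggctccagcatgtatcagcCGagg
SCHIP1: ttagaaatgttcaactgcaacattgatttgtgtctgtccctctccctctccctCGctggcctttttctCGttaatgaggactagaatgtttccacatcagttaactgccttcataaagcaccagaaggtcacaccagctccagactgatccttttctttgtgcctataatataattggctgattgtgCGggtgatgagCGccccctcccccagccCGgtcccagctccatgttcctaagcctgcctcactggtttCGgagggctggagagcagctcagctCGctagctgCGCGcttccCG
GALNT17: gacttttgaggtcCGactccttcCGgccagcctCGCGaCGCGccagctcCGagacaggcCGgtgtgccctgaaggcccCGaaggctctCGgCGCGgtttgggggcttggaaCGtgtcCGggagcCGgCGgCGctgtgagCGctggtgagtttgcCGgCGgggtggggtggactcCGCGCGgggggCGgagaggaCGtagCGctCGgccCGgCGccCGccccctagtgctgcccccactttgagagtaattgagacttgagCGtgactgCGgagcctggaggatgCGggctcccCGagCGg
GSE1's promoter held 34 CG dinucleotides, SCHIP1's held 10 and GALNT17's held 35. Of all listed promoters, 20.9% had as many or more than GSE1, 73.0% as many or more than SCHIP1, and 19.04% as many or more than GALNT17. The promoter of GABRG3, the other gene with no interior region, held 27, and 38.1% of listed promoters had as many or more. CG content did not order these 4 genes by density. Over whole groups, the median CG count was 26 for very long genes whose start site was open in both libraries, 15.5 for those open in neither, and 22 for all protein-coding genes with an entry.

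MicroRNA hairpins are the annotated short features of these interiors that carry a printable sequence. The hairpin list used here placed 75 hairpins in the kept interiors, in 63 host genes. That list may be incomplete, so 75 is not a full count of the hairpins these interiors hold. A lactate region overlapped 7 of the 75 listed, against 3 overlapped by an untreated region. MIR214 and MIR3120, which lie on opposite strands of 1 stretch of DNM3 (dynamin 3, a membrane-scission GTPase), shared a lactate region of pileup 11, the number of tags over its summit. MIR7157 in LRP1B lay in a lactate region of pileup 21 and MIR6718 in DLGAP1 in one of pileup 20. The untreated list had no region at those 4 hairpins, which rest on 3 lactate regions, and 37.8% of lactate members and 30.2% of all lactate regions stood in the lactate list alone. In both lists a region covered MIR583 in CAST (pileup 31 in lactate, 24 in untreated), MIR7843 in RGS6 (19 in lactate, 25 in untreated) and MIR5093 in GSE1 (75 in lactate, 35 in untreated). Their mature sequences from RefSeq are given with the seed, bases 2 to 8, in capitals.
miR-214-3p: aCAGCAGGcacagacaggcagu
miR-214-5p: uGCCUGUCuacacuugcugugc
miR-3120-3p: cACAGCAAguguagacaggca
miR-3120-5p: cCUGUCUGugccugcuguaca
miR-7157-5p: uCAGCAUUcauuggcaccagaga
miR-7157-3p: uCUGUGCUacuggaugaagagu
miR-6718-5p: uAGUGGUCagagggcuuauga
miR-583: cAAAGAGGaaggucccauuac
miR-7843-5p: gAGGGCAGagccagcuuccuga
miR-7843-3p: aUGAAGCCuucucugccuuacg
miR-5093: aGGAAAUGaggcuggcuaggagc
No seed was shared among the 11 mature sequences of the 7 hairpins. An open region over a hairpin says nothing of whether the microRNA was made.

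Open regions were sparser inside very long genes than inside short ones in both libraries, and at the authors' cutoff by a like factor. Lactate cells had 20.6 interior regions per Mb (95% exact Poisson interval 20.1 to 21.2) in very long genes and 41.1 (40.4 to 41.9) in genes under 100 kb, a ratio of 0.502 (0.486 to 0.519). Untreated cells had 15.9 per Mb (15.4 to 16.3) in very long genes and 31.5 (30.8 to 32.1) in genes under 100 kb, a ratio of 0.504 (0.485 to 0.523). All intervals cover counting error only, and neighbouring regions are not independent. The lactate list was longer in each pooled set. It held 1.30 times as many regions as the untreated list in very long genes (1.25 to 1.36) and 1.31 times as many in short genes (1.27 to 1.34). Over all regions it held 1.27 times as many. By gene, 247 very long genes had more lactate than untreated regions, 34 had fewer and 33 had equal numbers. The lactate library had fewer tags (15401276) than the untreated library (18248413). With regions under a recomputed −log10 p of 7 dropped, the lactate list held 1.28 times as many (1.22 to 1.34) in very long genes and 1.38 times as many (1.34 to 1.42) in short genes, so the factors were alike at the authors' cutoff and not at this stricter one.

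Density fell with gene length through every class. In genes of 1 Mb or longer, of which there were 69, it was 14.8 regions per Mb in lactate and 11.9 in untreated cells, and in the 245 genes of 500 kb to 1 Mb it was 24.0 in lactate and 18.2 in untreated cells. Genes of 250 to 500 kb had 31.1 in lactate and 24.1 in untreated cells, and genes of 100 to 250 kb had 37.4 in lactate and 29.4 in untreated cells. The order of the classes was the same in both lists. The gap was also present at equal distance from gene ends: 10 to 50 kb from the nearest end, very long genes had 26.7 lactate regions per Mb and short genes 41.5, and the untreated values were 20.02 in very long genes and 31.9 in short genes. Pooled over very long genes, density was 16.2 per Mb in lactate and 12.9 in untreated cells beyond 250 kb from any end. The longer genes, sparser as a class, supply more of that interior, so depth and gene length were not separated.

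**Figure D1:**
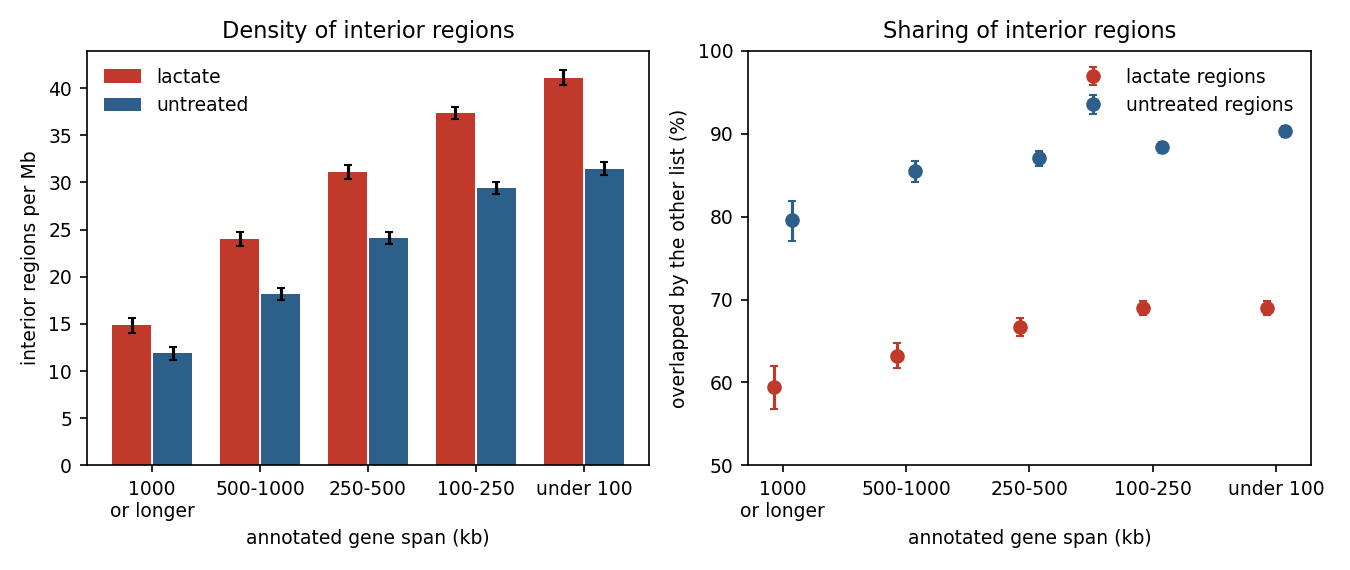
Left, interior regions per Mb of kept interior by class of annotated gene span (kb) in lactate and untreated cells, with exact 95% Poisson intervals. Right, the percentage of each list's interior regions overlapped by the other list, with exact 95% binomial intervals, on an axis from 50 to 100. Density and sharing are both lowest in genes of 1 Mb or longer, at 14.8 regions per Mb and 59.4% in lactate and 11.9 and 79.5% in untreated cells.

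Regions inside very long genes were also low and narrow. Their median pileup was 14 tags in lactate cells (quartiles 9 and 26), against 21 (12 and 41) in short genes. In untreated cells it was 14 (10 and 22) in very long genes and 19 (12 and 32) in short genes. Their median width was 304 bp in lactate and 302 bp in untreated cells, against 352 and 391.5 bp in short genes. At the 200 bp minimum width stood 22.1% of lactate members and 28.1% of untreated members, against 11.9% and 13.8% in short genes. The local background recovered from the authors' fold values was lower too, with a median of 1.10 tags in lactate and 1.56 in untreated cells, against 1.94 and 2.60 in short genes. Fewer regions per Mb and lower summits thus went together in these interiors, and mappability and copy number, for which no values were at hand, were not tested.

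The lists overlapped less inside very long genes than inside short ones. Of the lactate members, 3300 of 5304 (62.2%, exact 95% binomial interval 60.9 to 63.5) were overlapped by an untreated region by at least 1 bp, against 69.0% (68.1 to 69.8) in short genes. The other 2004 (37.8%) stood in the lactate list alone, and 30.2% of all lactate regions did. Of the untreated members, 3414 of 4072 (83.8%, 82.7 to 84.96) were overlapped by a lactate region, against 90.3% (89.6 to 90.9) in short genes. The other 658 (16.2%) stood in the untreated list alone, and 11% of all untreated regions did. Both libraries therefore had a larger share of regions of their own in very long genes than over all regions.

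Height moved with this difference in sharing. Members listed alone had a median pileup of 10 in each library, whereas overlapped members had 20 in lactate and 15 in untreated cells. At equal pileup the order turned round in the lactate list: of regions with 5 to 9 tags, 31.6% were overlapped in very long genes and 27.1% in short genes, of those with 20 to 29 tags 83.9% in very long and 79.8% in short genes, and of those with 30 to 49 tags 97.2% in very long and 91.5% in short genes. In the untreated list very long genes remained lower at the foot, with 61.2% in very long and 64.8% in short genes at 5 to 9 tags and 80.1% in very long and 83.6% in short genes at 10 to 14 tags, and from 15 tags up its values were at or just above those of short genes. With single-summit regions of up to 240 bp set aside as well, the untreated values drew level, at 76.8% in very long and 77.2% in short genes for 5 to 9 tags and 91.0% in very long and 91.4% in short genes for 10 to 14 tags, and the lactate order at 5 to 9 tags was unaltered, at 37.4% in very long and 31.5% in short genes. Weighting the short-gene regions to the pileups of the members gave 57.5% for lactate and 85.3% for untreated cells. Weighting them instead to the members' recomputed −log10 p gave 61.4% for lactate, inside the members' interval, and 88.6% for untreated cells, above it. The value for untreated cells weighted to height lay just past the members' interval. Lower sharing of the members was thus not seen in lactate regions at equal height or strength. In untreated regions at equal pileup it lay in the lowest classes, which drew level once single-summit regions of up to 240 bp were set aside. At equal recomputed −log10 p it remained in untreated regions, at 83.8% in members against 88.6%. Single-summit regions of up to 240 bp were not set aside in that comparison.

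**Figure D2:**
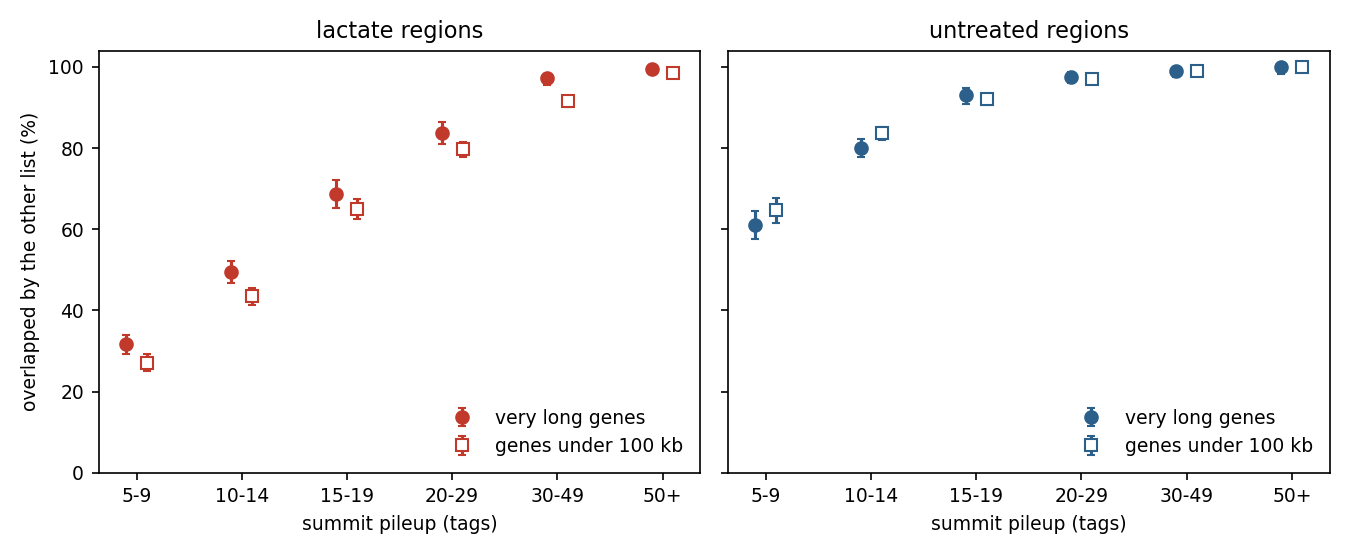
Percentage of interior regions overlapped by the other list, by summit pileup in tags, for lactate regions (left) and untreated regions (right). Filled circles are very long genes and open squares genes under 100 kb, with exact 95% binomial intervals; lactate regions of very long genes lie above those of short genes in every class, at 97.2% and 91.5% for 30 to 49 tags.

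Where both libraries had a region, the summit was higher per total tags in lactate cells, and somewhat less so in very long genes. Overlapping regions of the lists were merged, which gave 6240 merged regions in very long genes: 3578 shared, 2004 of lactate alone and 658 of untreated alone. The lactate-only regions outnumbered the untreated-only ones 3.05 times (2.79 to 3.33) in very long genes, against 4.16 times (3.86 to 4.49) in short genes and 3.49 times over all merged regions. With the lists reduced to equal length by fold enrichment the excess was 1.13 times (1.03 to 1.23) in very long and 1.08 times (1.01 to 1.16) in short genes. Over the shared members the median of lactate over untreated pileup, both divided by total tags, was 1.54 (1.52 to 1.58), against 1.69 (1.68 to 1.71) in short genes and 1.66 over all. The ratio was above 1 in 84.1% of shared members, in 90.6% of shared short-gene regions and in 89.5% of all. Taller regions had higher ratios in these libraries, and the members were low, with median summits of 20 tags in lactate and 15 in untreated cells. Weighted to equal summit tags, the mean of the bin medians was 1.54 in very long genes and 1.57 in short genes, so most of the gap in ratio went with height.

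A relative ratio was formed by dividing each ratio by the median of shared regions of like height, in 20 bins. Its median was 1 in very long genes, in short genes and overall. It was 1.5 or more in 461 shared members (12.9%, 11.8 to 14.03), where 11.7% of all shared regions and 12.7% of those of like height reached that. It was 1/1.5 or less in 503 members (14.1%, 12.9 to 15.2), where 11.9% of all and 13.1% of those of like height were. Both shares lay near their backgrounds at like height.

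Gene by gene, the excess of lactate-only regions was widespread. Of the 310 very long genes with an interior region in 1 list alone, 271 (87.4%) had more lactate-only than untreated-only regions, against 77.2% of all 6051 protein-coding genes with such a region and 77% of those under 100 kb. More untreated-only regions were found in 20 (6.45%), against 13.4% of all and 15.3% of those under 100 kb. The genes compared differ in how many regions they hold, which bears on such counts: very long genes had a median of 17.5 merged regions each. With both lists reduced to equal length by fold enrichment, 141 very long genes had more lactate-only and 119 more untreated-only regions; that step changes both the length of the lactate list and which regions remain in it. The density of a gene's interior was much the same in both libraries, with a Spearman correlation of 0.92 and a Pearson correlation of 0.94 over the 314 genes, which share the 2 libraries and are not independent replicates.

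Individual genes spanned a wide range. Per gene, the lactate density ran from 0 to 120.8 regions per Mb with a median of 19.3, and the untreated density from 0 to 100.7 with a median of 14.99. GSE1 (a component of a histone demethylase complex; chr16:85169512-85676200) was the densest in both, with 60 lactate and 50 untreated regions. CAST (calpastatin, the inhibitor of calpain proteases; chr5:95961429-96774683) had 52 lactate and 42 untreated regions. NAV2 (a neuron navigator protein that binds the cytoskeleton; chr11:19345236-20121601) had 51 lactate and 37 untreated regions. These are genes of 507 to 813 kb with interiors denser than those of short genes as a whole. The listed start site lay far inside the span in GSE1 (position 85613322) and CAST (96743602). Most of the annotated span of these 2 genes thus lay before that site. SCHIP1 and IQCJ-SCHIP1 (chr3:159069319-159897359), a gene and the longer read-through that contains it, share most of their regions and had 42 and 50 in lactate, and 42 and 49 in untreated cells. The listed start site of SCHIP1 (159839960) likewise lay far inside its span.

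Among genes over 1 Mb the most regions lay in PTPRN2 (a receptor phosphatase family member of secretory granules; chr7:157539056-158587823), with 56 lactate and 35 untreated regions. PDE4D (a cyclic AMP phosphodiesterase; chr5:58969038-60522128) had 53 in lactate and 36 in untreated cells. TENM2 (teneurin 2, a synaptic adhesion protein; chr5:166979029-168264157) had 50 in lactate and 29 in untreated cells, and KAZN (kazrin, a junction-associated protein of keratinocytes; chr1:13892824-15118043) had 48 in lactate and 38 in untreated cells. In each, the untreated number was the smaller, as it was in 247 of the 314 very long genes. Density was weakly related to span over the 314 genes (Spearman correlation -0.23, Pearson correlation -0.25), so length alone ordered the genes poorly.

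At the other end were genes with almost no members. GABRG3 (a GABA-A receptor subunit; chr15:26971181-27541984) and GALNT17 (a glycosyltransferase family member; chr7:71132144-71713599) had no interior region in either list. SCAPER (chr15:76347904-76905340) had 1 in lactate and 0 in untreated cells, although its start site was open in both with pileups of 20 and 19. GRM7 (a metabotropic glutamate receptor; chr3:6861115-7741533) had 1 in each, and OPCML (a neuronal cell-surface adhesion protein; chr11:132414981-133532501) had 2 in each. Except for SCAPER, none of these 5 had an open start site. Regions of 218 to 226 bp, outside the rule, were listed in all 5, for example 4 in lactate and 4 in untreated cells in GABRG3.

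**Figure D3:**
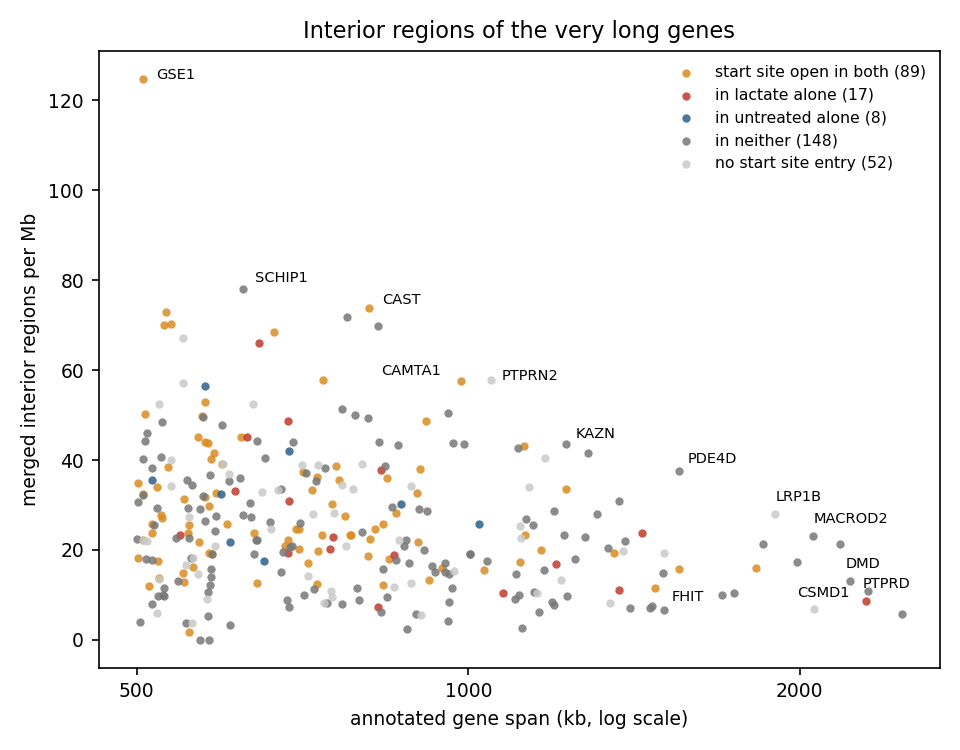
Merged interior regions per Mb of kept interior for each of the 314 very long genes against annotated span (kb, log scale), coloured by whether the listed start site had a region in both libraries, in 1 or in neither. GSE1 stands highest at 124.8 merged regions per Mb, and the 7 genes over 2 Mb reach at most 23.2.

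Long stretches held no region in either list. The longest member-free stretch of a gene had a median of 160 kb, and it was 100 kb or longer in 251 of the 314 genes. It exceeded 500 kb in 13 genes. The longest were in NELL1 (a secreted growth-factor-like protein; 749 kb), FHIT (a tumour suppressor enzyme at a fragile site; 680 kb), CDH12 (a neuronal cadherin; 676 kb) and CNTN4 (contactin 4, an axonal adhesion protein; 652 kb). In GSE1 the longest such stretch was 39.7 kb, the shortest of the 314 genes.

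Along the gene, regions were more frequent near the 3′ end. In 262 genes with a listed strand, the annotated span was divided into 10 equal parts from 5′ to 3′. In 79 of them the listed start site lay 5 kb or more from both ends. It lay toward the 3′ end in the dense genes GSE1, CAST and SCHIP1. Regions shared by SCHIP1 and IQCJ-SCHIP1 were counted in both genes. The first 8 parts had between 17.5 and 21.1 lactate regions per Mb, and the ninth and the tenth had 26.2 and 27.6. Untreated densities were 12.8 to 16.9 in the first 8 parts, and 19.4 and 21.1 in the ninth and the tenth. The higher density at the 3′ end thus appeared in both libraries. Untreated regions in the ninth part were overlapped by a lactate region in 91.0% (87.8 to 93.5) of cases, against 79.1% to 87.9% in the other parts.

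**Figure D4:**
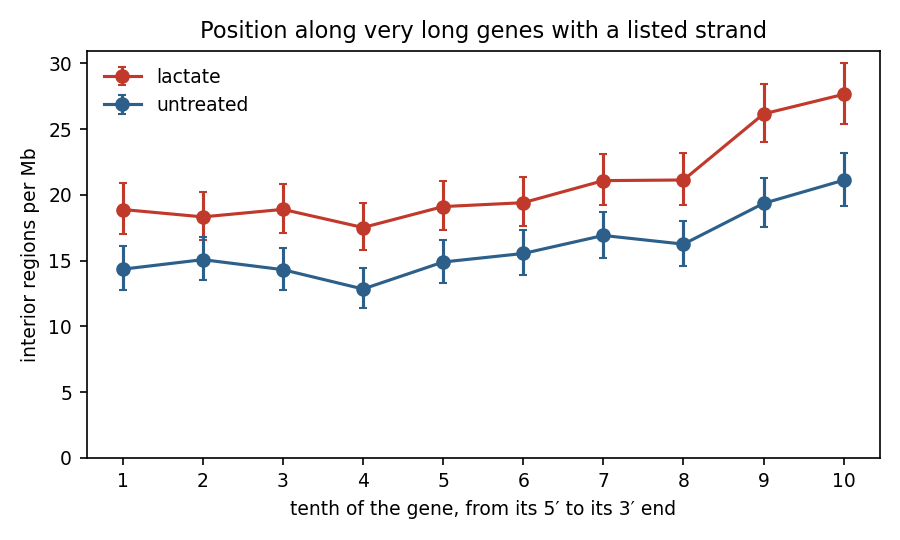
Interior regions per Mb in 10 equal parts of the annotated span of 262 very long genes, from 5′ to 3′, in lactate and untreated cells. Intervals are exact 95% Poisson ones. Both lines are highest in the tenth part, at 27.6 in lactate and 21.1 in untreated cells.

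Start sites of very long genes were less often open than those of other genes. A start site counted as open when a region lay within 1 kb. Of the 262 genes with an entry, 89 (34.0%) were open in both libraries, 17 (6.49%) in lactate alone, 8 (3.05%, 1.33 to 5.93) in untreated alone and 148 (56.5%) in neither. Over 15812 protein-coding genes the shares were 60.0% in both, 5.63% in lactate alone, 0.841% in untreated alone and 33.5% in neither. Interiors behind a start site open in both had 25.6 lactate and 19.9 untreated regions per Mb, and those behind one open in neither had 18.4 lactate and 14.1 untreated. Interiors of the 17 genes open in lactate alone had 19.2 lactate and 14.97 untreated regions per Mb, and those of the 8 open in untreated alone had 26.7 lactate and 20.5 untreated. Interiors were thus sparser behind start sites open in neither than behind those open in both, while the 8 genes open in untreated alone had densities close to those of the 89 in both libraries. The 17 open in lactate alone had pileups of 7 to 37, the highest at DOCK1 (a guanine nucleotide exchange factor for Rac; 37) and ADGRL2 (a latrophilin adhesion receptor; 30). They included FOXP1 (11) and ZBTB20 (10), both transcriptional repressors. The 8 open in untreated alone, at pileups of 6 to 17, were RBFOX3 (a neuronal splicing factor), FOXP2 and NPAS3 (transcription factors of the brain), ELMO1 (a partner of DOCK1), SLC14A2 (a urea transporter), FRMD4A, NKAIN2 and CSMD2. Their promoters held a median of 7.5 CG dinucleotides, and those of the 17 held 27. These states concern the listed start site only. Within 1 kb of an annotated gene end, both lists had a region at ADGRL2, ZBTB20, RBFOX3, FOXP2 and NKAIN2, among others. At DOCK1 and FOXP1 the gene ends had a region in lactate alone. In both genes the listed start site lies within 1 kb of an annotated end, so the same region can count for both states. In 79 of the 262 genes the listed start site lay 5 kb or more from both annotated ends, so some interiors contain it; 19 lactate and 21 untreated members lay within 1 kb of a listed start site.

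Genes were grouped by what their proteins do, from lists written from general knowledge. Of these groups, transcription factors and chromatin proteins had the densest interiors and neuronal adhesion and guidance the sparsest. Gene length was not held equal between groups. The 20 very long genes of transcription factors and chromatin had 29.6 lactate and 23.5 untreated regions per Mb, and 14 of them lay above the median density of all 314. FOXP1 had 26 lactate and 21 untreated regions, and ZBTB20 had 31 in lactate and 21 in untreated cells. MECOM (a zinc-finger regulator of stem cells; chr3:169083507-169663712) had 21 in lactate and 17 in untreated cells. The 35 genes of kinase, phosphatase, GTPase and cyclic nucleotide signalling had 23.3 in lactate and 17.6 in untreated cells. The 35 genes of adhesion, polarity and cytoskeleton had 21.98 in lactate and 17.1 in untreated cells, among them LPP (a focal adhesion scaffold) with 37 lactate and 28 untreated regions. All 314 together had 20.8 in lactate and 15.98 in untreated cells, counting a region once for each gene it lay in.

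The neuronal groups were lower. The 38 genes of neuronal adhesion and guidance had 13.0 lactate and 10.3 untreated regions per Mb, and 7 of them lay above the median of all 314. Overlap was also lowest there in the untreated list, at 76.6%, against 83.9% over all 314. The 19 genes of neuronal receptors and channels had 17.3 in lactate and 13.5 in untreated cells. The 19 genes at fragile sites had 15.8 in lactate and 12.7 in untreated cells, with FHIT at 8 lactate and 4 untreated regions, WWOX (an oxidoreductase tumour suppressor) at 16 and 12, and DMD (dystrophin) at 22 and 19. The 32 genes of DNA repair, protein modification and other housekeeping had 17.1 in lactate and 13.5 in untreated cells. That group was mixed: it held RBFOX3, a neuronal splicing factor, and GALNT17, which had no interior region. The groups share some genes, and 142 genes were in no group. Those 142 had 23.4 lactate and 17.7 untreated regions per Mb. Some genes of neuronal proteins lay outside the neuronal groups, such as SYT1 and SYN3 in no group and DLGAP1 under kinase, phosphatase, GTPase and cyclic nucleotide signalling. The contrast between groups thus depends on the lists. The groups were not tested against each other. They also differed in gene length, with which density fell. The 38 genes of neuronal adhesion and guidance had 41.9 Mb of kept interior and the 19 at fragile sites 27.7 Mb. The 20 of transcription factors and chromatin had 15.5 Mb. Role and length were not separated. Of 8 neuronal marker genes, among them the very long genes SYT1 and RBFOX3, 4 had a region within 1 kb of a gene end in lactate and 6 in untreated cells, with pileups of at most 52 in lactate and 43 in untreated cells. Of 10 squamous markers 8 had one in each list, with pileups of up to 155 in lactate and 94 in untreated cells; TP63 and KRT14 had none at their ends.

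**Figure D5:**
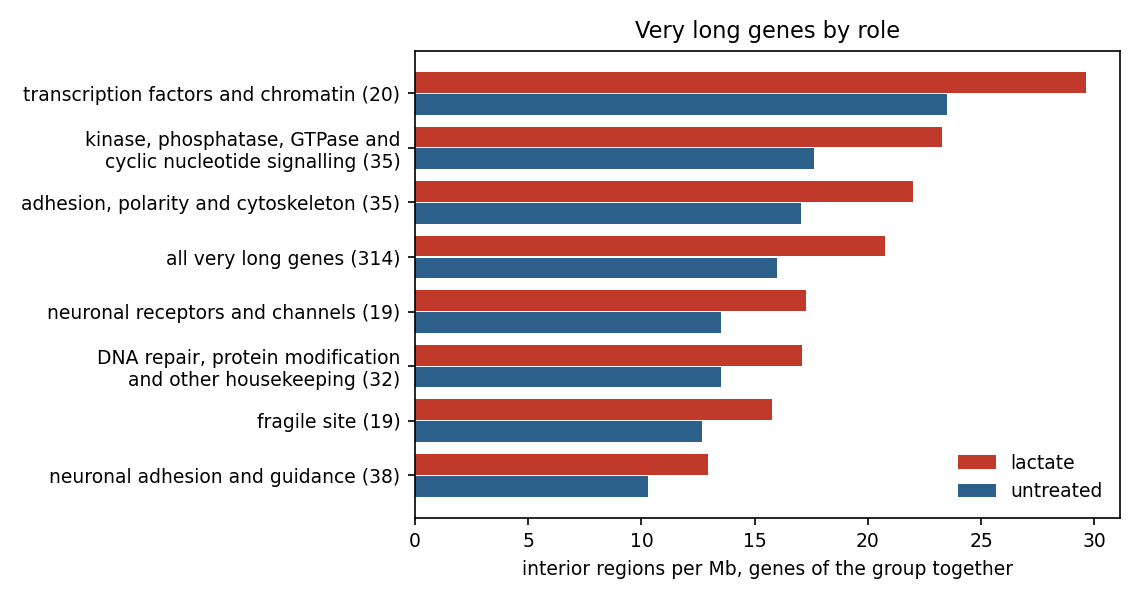
Interior regions per Mb, all genes of a group pooled, in lactate and untreated cells, with the number of very long genes in brackets; groups share genes and no intervals are drawn. Transcription factors and chromatin stand highest (29.6 in lactate, 23.5 in untreated) and neuronal adhesion and guidance lowest (13.0 in lactate, 10.3 in untreated). Gene length differs between groups.

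Genes differed in how much of their open interior was listed in lactate alone. In very long genes together, 2004 of 6240 merged regions were in lactate alone, and 31001 of 113253 over all merged regions. Among the 129 genes with at least 20 merged regions, the share was highest in ANKS1B (an ankyrin-repeat protein of the postsynapse), where 13 of 22 (59.1%) were in lactate alone. It was 52.4% in ADGRV1 (a very large adhesion receptor of hair cells) and PLXNA4 (a semaphorin receptor), and 52.2% in SEMA5A (a semaphorin) and SLC9A9 (an endosomal sodium-proton exchanger). At the low end it was 3 of 33 (9.09%) in THSD4 (a matrix protein that binds fibrillin), 10.7% in STARD13, 12.5% in SCHIP1 and 14.8% in GMDS (an enzyme of GDP-fucose synthesis). With about 20 to 60 regions a gene and 1 library a group, these shares are wide in counting error.

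The summit ratio relative to regions of like height was also compared by gene. Some genes named here had few shared regions, for example 10 in THSD7B and 11 in CSMD1. Among the 167 genes with at least 10 shared regions, the median relative ratio was highest in THSD7B (1.35), followed by PDE4B (a cyclic AMP phosphodiesterase; 1.28), RYR3 (a calcium release channel; 1.28) and PPFIA2 (liprin alpha 2, a presynaptic scaffold; 1.28). It was lowest in CSMD1 (a complement-related membrane protein; 0.673), DNM3 (0.680), MECOM (0.743) and ADK (adenosine kinase; 0.776). In CSMD1 the unadjusted median ratio was 0.931, so its shared summits were about level per total tags in lactate and untreated cells, and no merged region there was in lactate alone, against 3 in untreated alone.

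The tallest members were single-summit regions only a few bases wider than the class left out. The highest, in MACROD2 (a mono-ADP-ribosyl hydrolase at a fragile site; chr20:14609838-14610067), had a pileup of 1113 in lactate and 745 in untreated cells and a width of 230 bp in lactate. AGAP1 (an Arf GTPase-activating protein; chr2:235713898-235714125) had 810 in lactate and 620 in untreated cells, and ADGRV1 (chr5:91140375-91140601) had 649 in lactate and 416 in untreated cells. Single-summit regions of 227 to 240 bp made up 226 of the lactate members and 155 of the untreated members. They held 21 of the 123 lactate members with a pileup of 100 or more, and 16 of the 25 such untreated members.

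Beyond 240 bp, a limit chosen after the values were seen, the tallest member lay in DLGAP1 (a postsynaptic scaffold; chr18:3623502-3624583), with a pileup of 286 in lactate and 145 in untreated cells, a ratio of 2.34 per total tags (1.91 to 2.87). SHANK2 (another postsynaptic scaffold; chr11:70482075-70483424) followed with 228 in lactate and 109 in untreated cells, a ratio of 2.48. A region of GSE1 near its listed start site (chr16:85615027-85615625) had 228 in lactate and 97 in untreated cells, a ratio of 2.79 (2.19 to 3.57). In HS6ST3 (a heparan sulfate sulfotransferase; chr13:96149267-96149743) the pileups were 199 in lactate and 93 in untreated cells. These regions were ranked by their lactate pileup, so their ratios are a description. Ranked by untreated pileup, the tallest beside those of DLGAP1 and SHANK2 had lower ratios: a second region of DLGAP1 (chr18:3624812-3625409) had 137 in lactate and 115 in untreated cells, a ratio of 1.41, and a region shared by SCHIP1 and IQCJ-SCHIP1 (chr3:159765045-159765984) had 157 in lactate and 111 in untreated cells, a ratio of 1.68. In PDE1C (a phosphodiesterase; chr7:31890399-31890796) the pileups were 162 in lactate and 108 in untreated cells, a ratio of 1.78. Set against regions of like height, the first 4 stood at 1.17 to 1.39 times the median and the last 3 at 0.704 to 0.887 times.

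Regions listed in 1 library alone were lower, with a median pileup of 10 in each. In the lactate list those with the highest fold over local background, as the authors' caller gave it, and wider than 240 bp lay in TMEM117 (chr12:44000391-44000708; pileup 37, fold 15.4), THSD7B (chr2:137659585-137659913; 29, 14.9), ASTN2 (astrotactin 2, of neuronal migration; chr9:117120050-117120397; 36, 14.8) and PDE4B (chr1:66217049-66217456; 28, 13.8). Without that width limit the highest in lactate was a region of 234 bp in OPCML (chr11:132439494-132439727, pileup 42, fold 21.6). In the untreated list, also without it, those with the highest fold were all at the minimum width of 200 bp. They were led by PPFIA2 (chr12:81738223-81738422, pileup 21, fold 10.1) and TRPM3 (a cation channel, chr9:71056034-71056233, 20, 9.05). PPARGC1A (a transcriptional coactivator of mitochondrial biogenesis) held a region of 200 bp (chr4:24309965-24310164, pileup 18, fold 8.73) and a wider one of 667 bp (chr4:23945508-23946174, 17, 8.27), both in untreated cells alone. Of untreated-only regions wider than 240 bp, the latter had the highest fold. MACROD2 held the next (chr20:14878785-14879214, 430 bp, pileup 28, fold 8.24).

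The 5 genes nearest the length limit on each side are given as a description. Just above 500 kb, AFF2 had 8 lactate and 8 untreated regions, PPP2R2B had 14 and 9, PPFIA2 had 11 and 14, SPOCK3 had 9 and 3, and CCDC178 had 2 and 0. Just below it, DIAPH3 had 4 lactate and 5 untreated regions, CPQ had 4 and 3, ITPR2 had 17 and 11, CACNA2D1 had 7 and 3, and DST (dystonin, a linker of the cytoskeleton to junctions) had 38 and 26, more than any of the other 9 genes.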

How the data were processed

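Peaks were called by the authors in each library on its own, per the file headers, with MACS 2.2.7.1, without a control library, at a q-value cutoff of 0.05, shifting 5′ ends by 100 bp and extending them to 200 bp, which centres each tag on the Tn5 cut. Named in the submitters' processing notes are BWA 0.7.12 and MACS2 2.1.0, fastp 0.20.0 and the build hg38. The deposited pileup is a signal, the number of extended tags over a summit, unscaled for depth. The deposited fold is the ratio of pileup to local background, each plus 1. The total tags, 15401276 in lactate and 18248413 in untreated cells, are per the file headers. Region positions were deposited in base pairs.

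Summits of 1 region were collapsed to the highest. Genes came from RefSeq GRCh38.p14. Single-summit regions of 218 to 226 bp (2029 lactate and 1741 untreated inside very long genes) were left out as members but counted when sharing was judged, by an overlap of 1 bp or more. The local background was recovered from pileup and fold, and a Poisson −log10 p was recomputed from both, since no −log10 p column of the authors was used here. Ratios are pileups per total tags, lactate over untreated. Intervals are exact binomial or Poisson ones at 95%, and cover counting error only. With 1 library per group no test was run.

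The members, gene groups and markers were chosen with earlier results of these data known. Genes named are those with the most regions, the highest and lowest densities, lactate-only shares (20 or more merged regions) and relative ratios (10 or more shared regions), those nearest the length limit, and a fixed list. Python 3.11.15, numpy 2.4.6, pandas 2.3.3, scipy 1.17.1 and matplotlib 3.10.9 were used. Interval counts were checked against bedtools 2.31.1, and the scripts were tested on simulated data.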

Additional observations from a re-analysis of the deposited data

How the results depend on the processing

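Neither the density ratios nor the median summit ratio reversed under the alternatives run. The other main values (overlapped shares, relative ratio and gene count) were scored only as moved or not. Of the values for single genes and other secondary values, 56 moved, 1 reversed and 503 did not move, and of the main values 23 moved and 57 did not. With regions under a recomputed −log10 p of 7 dropped from either list, the density ratio of very long to short genes was 0.440 in lactate and 0.476 in untreated cells, and the median summit ratio was 1.58. With lists of equal length by fold enrichment, which fixes the overall numbers by construction, the lactate list held 0.989 times as many members as the untreated list, 71.1% of lactate and 74.6% of untreated members were overlapped, against 79.0% and 80.6% in short genes, the summit ratio was 1.62, and 141 genes had more lactate-only regions. For genes of 1 Mb or longer the density ratios were 0.361 in lactate and 0.377 in untreated cells, the overlapped shares 59.4% and 79.5%, the summit ratio 1.51, and 59 of these 69 genes had more lactate-only regions. At 20 kb from gene ends the lactate density ratio was 0.519. With narrow regions kept the density ratios were 0.603 in lactate and 0.615 in untreated cells, the overlapped shares 69.0% and 87.2%, and the median relative ratio 0.983. Without the 10 genes with the most merged regions the density ratios were 0.473 in lactate and 0.475 in untreated cells. Sharing judged on the other list less its narrow regions, chosen after seeing the data, gave 58.2% for lactate and 76.0% for untreated members. The cause of these shifts was not tested. Other alternatives added after seeing the data (240 bp as the narrow limit, ends of every RefSeq gene, and listed start sites as well) and the remaining planned ones moved none of the main values beyond their intervals. No paired analysis was possible because a group held 1 library, and none could be left out. The low pileups, with medians of 14 tags, limit what a region missing from 1 list can show.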
